A study of Sus scrofa with 7 samples.

Results

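Apolipoproteins are the proteins that coat, stabilise and address the particles in which lipid travels through body fluids, and microsomal triglyceride transfer protein (MTTP) loads lipid onto the largest of them. The genes described here are *APOE*, *APOA1*, *APOA2*, *APOA4*, *APOB*, *APOC3*, *APOH*, *APOM* and *MTTP*, 9 of the 29510 genes listed. They were chosen by name. The symbols of 8 were found in the tables, and *MTTP*, whose row has a protein description but no symbol, was found by its Ensembl identifier. Of the 9 genes, 8 passed the filter on low counts, and *APOH* had 0 counts in every library.

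RNA was sequenced from pig cells: 3 lines of extra-embryonic endoderm (pXEN cells), 2 lines of naïve-like (nESC) and 2 lines of primed (pESC) embryonic stem cells, with 1 library for each line. The pXEN lines came from the inner cell mass of parthenogenetic blastocysts. They grew on mouse embryonic fibroblasts with hLIF, the GSK3 inhibitor CHIR99021, (S)-(+)-dimethindene maleate, minocycline hydrochloride, the ROCK inhibitor Y27632, serum replacement and fetal bovine serum, at passage 26 for lines 1 and 2 and passage 23 for line 3. Both nESC lines (passages 21 and 22) also grew on mouse embryonic fibroblasts, with FGF, hLIF, CHIR99021, the MEK inhibitor PD0325901, the TGFβ receptor inhibitor SB431542 and doxycycline. The pESC lines, both at passage 20, had been converted from nESCs and grew on STO cells, a mouse fibroblast line, with activin A, bFGF, EGF, hLIF and insulin-transferrin-selenium. Medium changed with cell type in each comparison, and feeder cells changed with it in those with pESCs, so their effects on these genes cannot be told apart. Serum replacement was part of all 3 media, and fetal bovine serum is named for the pXEN medium alone.

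In mammals, visceral endoderm and the yolk sac make lipoproteins for the embryo before the liver takes over, and extra-embryonic endoderm lines are a culture model of that lineage. *APOB* is the scaffold of very low density lipoproteins and cannot leave a particle once it is made. MTTP transfers triglyceride to nascent APOB in the endoplasmic reticulum, and the other apolipoproteins are smaller and can move between particles. APOA1 and APOA2 are the main proteins of high density lipoprotein, APOE is the ligand by which cell surface receptors take up remnant particles, and APOC3 slows lipolysis and uptake.

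Between 10408164 and 12995720 reads were counted on genes in each library. A gene was taken as detected above a floor of 3 counts, which is 0.231 to 0.288 CPM (counts scaled to a common library size), and floors and intervals cover counting error only. Of 10 tested markers of extra-embryonic endoderm, all 10 were higher in pXEN cells than in either ESC type, where 28.3% and 23.9% of all genes were, and 4 of the 11 listed lay above the floor in both nESC lines, so that some of the 10 had to differ. *SOX7* lay at or near 0 in every library. By real-time PCR the paper found *SOX7* higher in pXEN cells than in nESCs. The *SOX7* row here does not show that difference. *SOX2* was at 102 and 126 FPKM in the nESC lines and at 147 and 154 FPKM in the pESC lines. In the pXEN lines it was at 0, 1.98 and 0 FPKM. *POU5F1* was under 0.3 FPKM in all 7 libraries. The paper reports its protein, OCT4, in nESCs and pESCs, so this row does not show that the gene was silent there. Of 8 tested pluripotency markers 5 were higher and 3 lower in pXEN cells than in nESCs (28.3% and 26.2% of all genes), and 3 higher and 5 lower than in pESCs (23.9% and 24.4% of all genes), with *NANOG* (4.50 to 15.5 FPKM in the pXEN lines, lowest in line 2), *LIN28A* and *SALL4* higher than in both. By immunofluorescence, real-time PCR and western blotting, the paper found pXEN cells not positive for NANOG. The *NANOG* row here goes the other way, and the cause was not tested. pXEN line 2 stood apart from lines 1 and 3. The summed level of 14 fibroblast markers was 262 FPKM in line 2, against 21.5 and 23.7 FPKM in lines 1 and 3, between 43.3 and 54.7 FPKM in the naïve-like and between 98.7 and 128 FPKM in the pESC lines. *COL1A1* was at 16.1, 144 and 14.8 FPKM in lines 1, 2 and 3, and *COL3A1* at 0.426, 77.5 and 3.87 FPKM. *COL1A2*, *DCN* and *LUM* were also detected in line 2, each at a higher level than in lines 1 and 3. The genes listed on the Y chromosome held 38 counts in line 2 against 1 and 3 in lines 1 and 3. They held 11 and 4 counts in the nESC lines and 0 and 1 in the pESC lines.

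In pXEN cells 8 of the 9 genes were transcribed above the floor in every line. *APOE* was the most abundant by a wide margin, at a mean of 8495 ± 484 FPKM (counts scaled by gene length and library size; SD, n = 3 lines). *APOA2*, *APOC3* and *APOM* followed at means of 214 ± 162, 96.5 ± 63.8 and 94.9 ± 18.1 FPKM, which without line 2 were 121, 59.9 and 86.8 FPKM. *MTTP* and *APOA1* were at 46.6 ± 10.9 and 34.4 ± 2.04 FPKM, and *APOA4* and *APOB* at 14.2 ± 4.88 and 13.8 ± 5.74 FPKM (SD, n = 3). In the ESC lines *APOA2*, *APOA4*, *APOB* and *APOC3* had at most 1 count in any library, whereas *APOE*, *APOA1*, *APOM* and *MTTP* were detected in all 4. Levels of different genes are set side by side only as FPKM, which is per length.

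**Figure D1:**
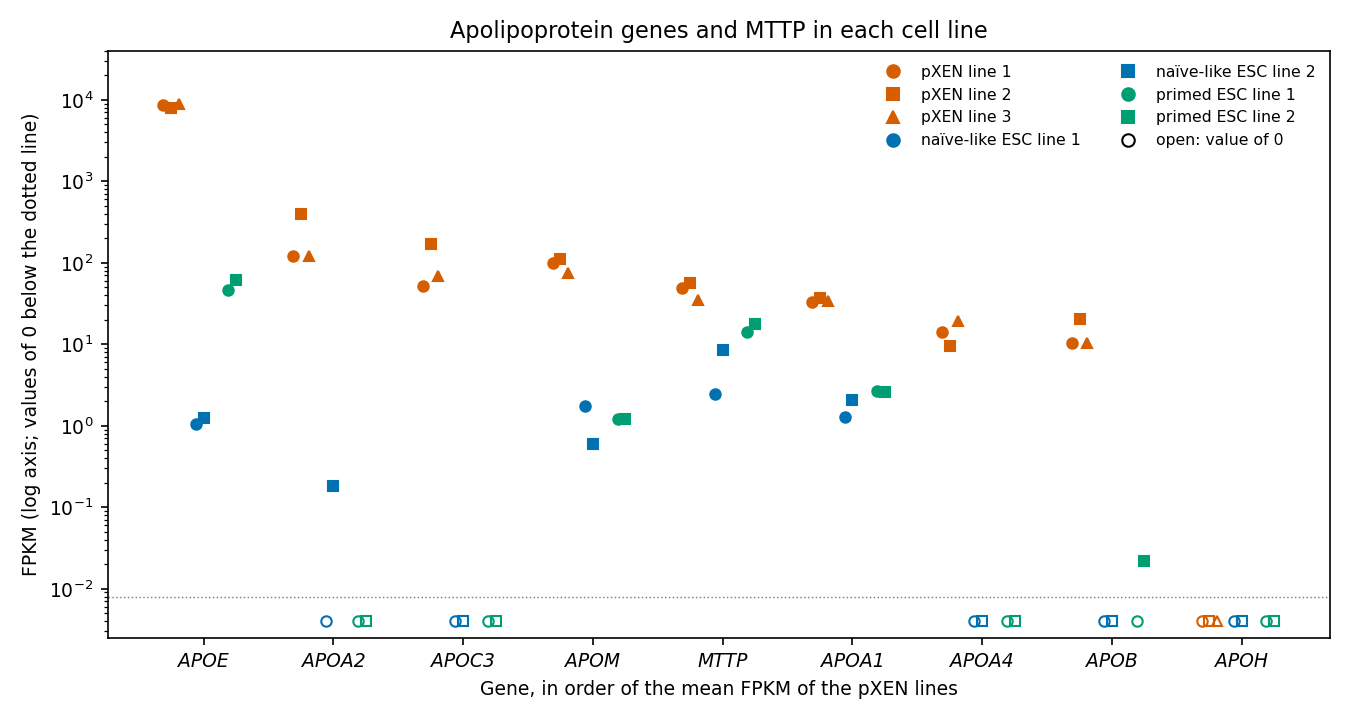
FPKM of the 9 genes in each of the 7 libraries, on a log axis, with values of 0 drawn as open symbols below the dotted line. *APOA2*, *APOA4*, *APOB* and *APOC3* are at or near 0 in the ESC lines, and *APOE* in pXEN cells stands above all others at 7973 to 8928 FPKM.

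Neighbours in the order of levels in pXEN cells were not all separated. *APOE* lay above *APOA2* in all 3 lines, with ranges that did not overlap. The ranges over the lines overlapped for *APOA2* and *APOC3*, for *APOC3* and *APOM*, for *MTTP* and *APOA1*, and for *APOA4* and *APOB*. Within each of the 3 lines *APOA2* nevertheless lay above *APOC3*, and *MTTP* above *APOA1*. The ranges did not overlap for *APOM* and *MTTP* or for *APOA1* and *APOA4*.

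*APOE* (ENSSSCG00000003088, chromosome 6, 47269970 to 47272195, plus strand, in the Sscrofa10.2 build) was the gene with the most RNA of the 9. Its level was 8585, 7973 and 8928 FPKM in pXEN lines 1, 2 and 3, from 93253, 101147 and 108255 counts. The nESC lines stood at 1.05 and 1.24 FPKM, from 14 and 16 counts, and the pESC lines at 45.9 and 62.1 FPKM, from 639 and 923 counts. The 3 cell types therefore formed 3 separate levels, with pESCs between the others. *APOE* reads made up 0.896% of all counts in pXEN line 1 (95% exact interval 0.890 to 0.902%), 0.802% in line 2 and 0.948% in line 3. Among nuclear genes ranked by FPKM, *APOE* was number 2, 3 and 1 in the 3 lines. It supplied 95.8%, 90.8% and 96.1% of the summed FPKM of the 9 genes.

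*APOE* was 7343-fold higher in pXEN cells than in nESCs (log2 fold change 12.84, SE 0.26, adjusted p = 1.82e-07) and 158-fold higher than in pESCs (log2 fold change 7.30, SE 0.20, adjusted p = 8.88e-07). Primed exceeded nESCs 46.5-fold (log2 fold change 5.54, SE 0.22, adjusted p = 5.35e-06). Unless another setting is named, p values are from edgeR's quasi-likelihood test, adjusted by Benjamini-Hochberg over the 17447 genes tested. In other settings the adjustment was made within that setting. An adjusted p below 0.05 was taken as a call. RNA from a whole culture cannot separate fewer cells with a transcript from less of it per cell, and this holds for each level below. The whole of *APOE* lies inside the interval of another same-strand row, named *PRR2*, with 6889, 7331 and 7494 counts in the pXEN lines, 126 and 172 in the nESC and 1105 and 1049 in the pESC lines. The treatment of reads that fall on overlapping rows is not given in the sources used here.

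*APOM*, a lipocalin of high density lipoprotein that carries sphingosine-1-phosphate, was at 98.4, 111 and 75.3 FPKM in the pXEN lines, from 831, 1095 and 710 counts. It was at 1.73 and 0.599 FPKM in the nESC lines, from 18 and 6 counts, and at 1.20 and 1.21 FPKM in the pESC lines, from 13 and 14 counts. All 4 ESC lines stood far below the pXEN lines, and the nESC lines lay on either side of the pESC lines. The difference was 79.9-fold against nESCs (log2 fold change 6.32, SE 0.37, adjusted p = 6.35e-06; 7.26 without nESC line 1 and 5.76 without nESC line 2) and 78.4-fold against pESCs (log2 fold change 6.29, SE 0.36, adjusted p = 1.02e-05). Primed and nESCs did not pass the test (log2 fold change 0.03, SE 0.50, adjusted p = 0.982), and the sign of this difference turned under upper-quartile scaling (-0.060) and without nESC line 2 (-0.53). *APOM* (chromosome 7, 27478637 to 27483545, minus strand) lies inside a same-strand processed transcript named *SLA-8*, which had 260, 282 and 374 counts in the pXEN lines and 213 to 252 in the ESC lines, and its end overlaps *BAG6* on the other strand.

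*APOA1*, the main protein of high density lipoprotein and the activator of LCAT, varied little between the pXEN lines. It was at 32.8, 36.7 and 33.7 FPKM in the pXEN lines, from 375, 490 and 430 counts. The nESC lines were at 1.28 and 2.06 FPKM, from 18 and 28 counts, and the pESC lines at 2.66 and 2.62 FPKM, from 39 and 41 counts. A low level of *APOA1* RNA was thus present in each ESC line. pXEN cells exceeded nESCs 20.4-fold (log2 fold change 4.35, SE 0.24, adjusted p = 4.73e-06) and pESCs 13.1-fold (log2 fold change 3.71, SE 0.22, adjusted p = 1.24e-05). Both primed lines lay above both nESC lines, but the difference did not pass the test (log2 fold change 0.65, SE 0.26, adjusted p = 0.0944), while without nESC line 2 it did (1.03, adjusted p = 0.0381). The row used (ENSSSCG00000030921, chromosome 9, 49288634 to 49290784, minus strand) shares 82.2% of its span with another *APOA1* row, which had 1, 6 and 6 counts in the pXEN lines and 0 in the ESC lines.

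*MTTP* (ENSSSCG00000009179, chromosome 8, 130036414 to 130087547, minus strand) showed the smallest difference of the 8 genes between pXEN cells and either ESC type. It was at 49.1, 56.0 and 34.7 FPKM in the pXEN lines, from 1972, 2630 and 1557 counts. The nESC lines were at 2.47 and 8.41 FPKM, from 122 and 401 counts, and the pESC lines were at 14.0 and 17.6 FPKM, from 721 and 970 counts. The nESC lines thus differed from each other by a larger ratio than the pXEN lines did. Transcripts of the transfer protein were well above the floor in ESC lines in which *APOB* had at most 1 count. pXEN cells exceeded nESCs 8.54-fold (log2 fold change 3.10, SE 0.48, adjusted p = 0.00102; 2.45 without nESC line 1 and 4.24 without nESC line 2) and pESCs 2.96-fold (log2 fold change 1.57, SE 0.44, adjusted p = 0.0199). The call against pESCs was lost without pESC line 1 (1.41, adjusted p = 0.134) or without pESC line 2 (1.74, adjusted p = 0.0836). Primed exceeded nESCs 2.88-fold (log2 fold change 1.53, SE 0.48, adjusted p = 0.0446), a call lost in 7 of the 16 other settings, among them without nESC line 1 (0.89, adjusted p = 0.102). A shorter *MTTP* row lies on an unplaced scaffold. It had 46, 47 and 18 counts in the pXEN lines, 5 and 64 in the nESC and 54 and 134 in the pESC lines. This row was not called in any comparison. Its log2 fold changes in pXEN cells were 0.23 against nESCs and -1.03 against pESCs (adjusted p = 0.848 and 0.349).

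**Figure D2:**
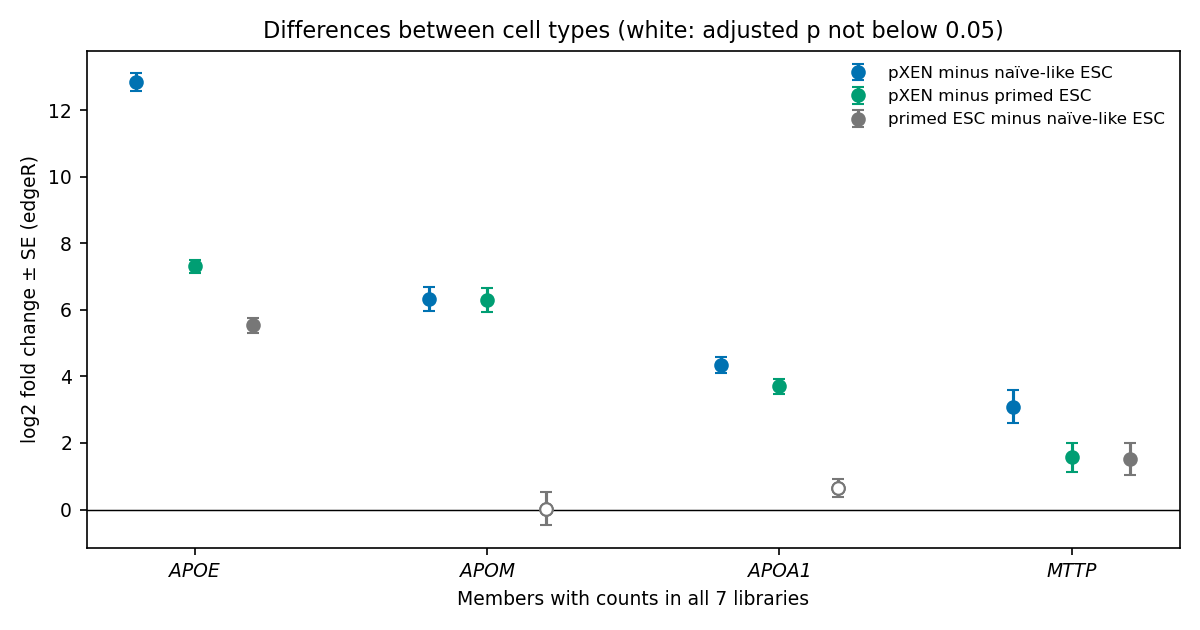
log2 fold changes with their standard errors for the 4 genes with counts in all 7 libraries, in the 3 comparisons, where white symbols did not pass an adjusted p of 0.05. *APOE* is the gene with a difference of over 5 on the log2 scale between the ESC types, and *MTTP* has similar differences in pXEN cells over pESCs (1.57) and in primed over nESCs (1.53).

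The remaining detected apolipoproteins were nearly restricted to pXEN libraries. They passed the filter on low counts only through the pXEN lines, so that they had to differ, and their differences are given as values with no test. *APOA2*, with *APOA1* a protein of high density lipoprotein (chromosome 4, 97094196 to 97095808, plus strand), was at 120, 401 and 121 FPKM in the pXEN lines, from 562, 2190 and 631 counts. It had 0 and 1 count in the naïve-like and 0 counts in both pESC lines. pXEN cells exceeded pESCs at least 431.5-fold, or at least 241.5-fold without line 2, where a bound is the pXEN mean over the highest floor of the other libraries, both scaled by TMM. Against the single count in nESCs the ratio was 2482, with a 95% exact counting interval of 445 to 98055, and without line 2 it was 1353 (242 to 53502).

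*APOC3*, an inhibitor of lipoprotein lipase and of the uptake of remnants (chromosome 9, 49283446 to 49285806, plus strand), followed the same outline. It was at 51.9, 169 and 68.0 FPKM in the pXEN lines, from 284, 1083 and 415 counts, and had 0 counts in the 4 ESC lines. The difference was at least 207.8-fold against nESCs and at least 227.4-fold against pESCs. Without line 2 these bounds were 128.4 and 140.5. *APOA4*, a protein of intestinal lipoproteins (chromosome 9, 49273815 to 49276432, minus strand), also had 0 counts in the ESC lines, but line 2 was the lowest of the pXEN lines for it. Its values there were 14.0, 9.48 and 19.2 FPKM, from 210, 166 and 322 counts. It was at least 83.8-fold higher than in nESCs and at least 91.7-fold higher than in pESCs.

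*APOB* (ENSSSCG00000008595, chromosome 3, 125228051 to 125253622, plus strand) was at 10.4, 20.4 and 10.5 FPKM in the pXEN lines, from 347, 795 and 391 counts. The nESC lines had 0 counts, and the pESC lines 0 and 1 count. It was at least 180.8-fold higher than in nESCs, or at least 136.5-fold without line 2, and its ratio over the single count in pESCs was 1244, with a 95% exact counting interval of 223 to 49171. The listed length of 3387 bases is a piece of this long gene, and other rows described as APOB lie on chromosome 3 and on an unplaced scaffold. The scaffold rows had 25, 92 and 19 counts and 28, 60 and 42 counts in the pXEN lines and at most 1 in any ESC line. The FPKM of *APOB* is that of this piece alone.

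*APOH*, or beta-2-glycoprotein I, a plasma protein that binds anionic phospholipid (chromosome 12, 13142350 to 13154328, minus strand), was at 0 counts in all 7 libraries, which allows up to 0.231 to 0.288 CPM. This does not show that the gene was silent. The interval is covered whole by another same-strand row, also at 0, and a row described as the same protein on an unplaced scaffold held 0, 1 and 62 counts in the pXEN lines, in order, and 0 in the ESC lines. The scaffold row was thus high in line 3 alone.

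Of the 9 genes, the 4 with counts in all 7 libraries (*APOE*, *APOM*, *APOA1* and *MTTP*) were called higher than in nESCs, where 28.3% of all genes tested were called higher, 26.2% lower and 54.5% in either direction. The same 4 were called higher than in pESCs, where 23.9% of all genes were called higher, 24.4% lower and 48.3% in either direction, and the comparisons share the pXEN libraries. Every pXEN line lay above every ESC line for these 4 genes, which was so for 35.5% of all genes against naïve-like and 33.2% against pESCs. The other 4 detected genes had to differ through the filter and are not counted, so the counts describe the genes and do not support a statement on the group. Between primed and nESCs, *APOE* and *MTTP* were called, both higher in pESCs, where 19.0% of all genes were called higher, 13.3% lower and 32.2% in either direction. Both pESC lines lay above both nESC lines for *APOE*, *MTTP* and *APOA1*, and for 37.4% of all genes. Without pXEN line 2 the calls of these 4 genes were the same in each comparison.

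The pXEN lines agreed closely on *APOE* and *APOA1* and parted on *APOA2*, *APOC3*, *APOA4* and *APOB*. The largest value over the smallest among the 3 lines was 1.12 for *APOE* and for *APOA1*, 1.47 for *APOM* and 1.61 for *MTTP*. It was 3.34 for *APOA2*, 3.26 for *APOC3*, 2.03 for *APOA4* and 1.96 for *APOB*, against a median of 1.37 over the 14993 genes that averaged 10 or more counts in pXEN cells. A ratio above 2 was found for 3 of the 8 genes and for 17.9% of those genes. In the spread between lines 1 and 3 alone, *APOA2* and *APOB* were nearly equal, with ratios of 1.01 for both, and that of *APOC3* was 1.31.

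Line 2 was the highest for *APOA2*, *APOC3*, *APOB*, *APOA1*, *APOM* and *MTTP*, and the lowest for *APOA4* and *APOE*. Without line 3 the ratios of *APOM* and *MTTP* were 1.13 and 1.14, and that of *APOA4* was 1.37 without line 2 and 1.48 without line 3. Over the mean of lines 1 and 3, line 2 was 3.33 times as high for *APOA2*, 2.83 times for *APOC3* and 1.95 times for *APOB*, and 0.570 times for *APOA4*. By pooled counts the 95% exact counting intervals of these ratios were 3.13 to 3.61, 2.58 to 3.12, 1.78 to 2.18 and 0.477 to 0.681, so none reached 1 by counting error. *APOA4* and *APOC3*, 7013 bases apart on chromosome 9, thus differed in opposite directions in line 2. *APOE* was 0.910 times as high in line 2. A ratio above 2 in line 2 was found for 4.97% and below 0.5 for 6.42% of the 14993 genes. With 1 library for each line, differences between lines have no replicate.

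Several other secreted proteins of visceral endoderm and yolk sac were also high in line 2. *SERPINA1*, alpha-1-antitrypsin, was at 677, 2633 and 565 FPKM in lines 1, 2 and 3, and *AFP*, the fetal albumin-like protein, at 3.06, 176 and 1.69 FPKM. *TTR* was at 6.49, 24.5 and 1.64 FPKM and *TF*, transferrin, at 233, 372 and 226 FPKM, while *ALB*, the adult plasma albumin, was at 0, 2.41 and 0.0885 FPKM. Line 2 was more than 2 times the mean of the other lines for 4 of the 9 genes of this list with enough counts, and under 0.5 times that mean for *FGB*, a fibrinogen chain, at 13.1, 3.95 and 3.15 FPKM, where line 1 was the high one. The summed level of the 14 genes listed was 3325 FPKM in line 2, against 997 and 879 FPKM in lines 1 and 3 and at most 21.1 FPKM in any ESC line. Enterocytes and hepatocytes also make lipoproteins. The summed level of 10 enterocyte markers was 90.0 FPKM in line 2, 46.1 and 44.4 FPKM in lines 1 and 3, at most 0.478 FPKM in the nESC and at most 13.9 FPKM in the pESC lines, with *VIL1* at 18.6, 28.6 and 19.5 FPKM in the pXEN lines, *ANPEP* at 22.4, 36.4 and 20.3 FPKM, and *CDX2* and *CDX1* at 0. *CDH17* was at 14.7 FPKM in line 2 and under 1 FPKM in lines 1 and 3. That of 12 hepatocyte markers was 85.5 FPKM in line 2, 45.2 and 40.7 FPKM in lines 1 and 3 and 5.25 to 9.06 FPKM in the ESC lines, with *HPX* at 37.3, 56.7 and 29.5 FPKM in the pXEN lines, *ARG1* at 0.808, 11.1 and 1.85 FPKM, and *CYP2E1* and *TDO2* at 0 in all libraries. Macrophages also make APOE, and the summed level of 13 of their markers was 3.15 to 6.23 FPKM in the pXEN and 7.90 to 11.4 FPKM in the ESC lines, with *PTPRC*, *CSF1R*, *C1QA*, *C1QB* and *C1QC* at 0 in all pXEN lines. The fibroblast markers and the counts on the Y chromosome described above were also higher in line 2, and their part in these differences was not tested.

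**Figure D3:**
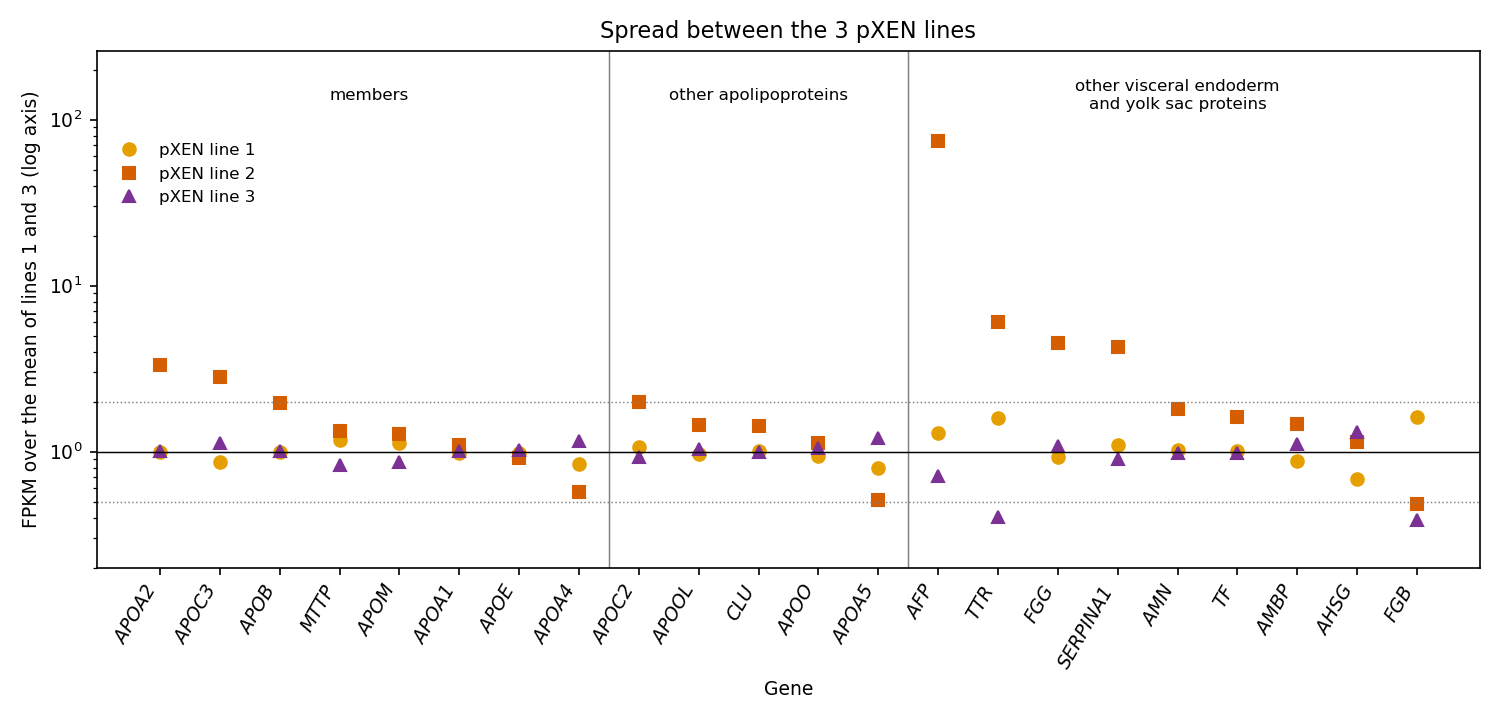
FPKM of each pXEN line over the mean of lines 1 and 3, on a log axis, for the detected members, other apolipoproteins and other visceral endoderm and yolk sac proteins with a mean of at least 10 counts and no value of 0; dotted lines mark ratios of 2 and 0.5. Line 2 lies above 2 for *APOA2* (3.33), *APOC3* (2.83), *AFP* (74.2), *TTR* (6.03), *FGG* (4.53) and *SERPINA1* (4.24), and at 2.00 for *APOC2*, and is the lowest of the lines for *APOA4* (0.570) and *APOA5* (0.513).

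*APOA4*, *APOC3* and *APOA1* sit side by side on chromosome 9 with *APOA5*, and the genes that flank this cluster differed less between pXEN cells and ESCs. *APOA5*, an activator of lipolysis in plasma, had 28, 21 and 47 counts in the pXEN lines, 0 in the naïve-like and 5 and 0 in the pESC lines. It exceeded nESCs at least 11.5-fold. The next gene out on that side, *ZPR1*, had 1308 to 1527 counts in the pXEN lines and 1380 to 1724 in the ESC lines and was not called (log2 fold change 0.10, adjusted p = 0.375 against naïve-like and 0.09, adjusted p = 0.449 against pESCs). On the other side, *SIK3*, 5805 bases from *APOA1*, had log2 fold changes of 0.22 (adjusted p = 0.186) and 0.48 (adjusted p = 0.0162). The 4 apolipoprotein genes of this cluster thus had more counts in each pXEN line than in any ESC line, and the nearest outer genes differed by less than 0.5 on the log2 scale.

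On chromosome 6 the order was *TOMM40*, *APOE*, *APOC4*, *APOC2* and *CLPTM1*, all on the plus strand and all within the interval of *PRR2*. *APOC2*, the cofactor of lipoprotein lipase, had 165, 361 and 160 counts in the pXEN lines and 0 in the ESC lines, at least 81.0-fold higher than in naïve-like and at least 88.6-fold higher than in pESCs. *APOC4* had 0 counts in all 7 libraries. *TOMM40*, a mitochondrial import pore 3805 bases before *APOE*, was lower in pXEN cells, with log2 fold changes of -0.52 (SE 0.13, adjusted p = 0.0087) and -0.39 (SE 0.13, adjusted p = 0.0347). *CLPTM1* was not called, with log2 fold changes of 0.09 (adjusted p = 0.533) and 0.19 (adjusted p = 0.206). *APOE* and *APOC2* thus lay apart between pXEN cells and ESCs beside *TOMM40* and *CLPTM1*, which differed by less than 0.6 on the log2 scale. *PRR2*, whose interval spans them all, was higher in pXEN cells, with log2 fold changes of 5.74 and 3.03 (adjusted p = 5.78e-07 and 6.72e-06).

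**Figure D4:**
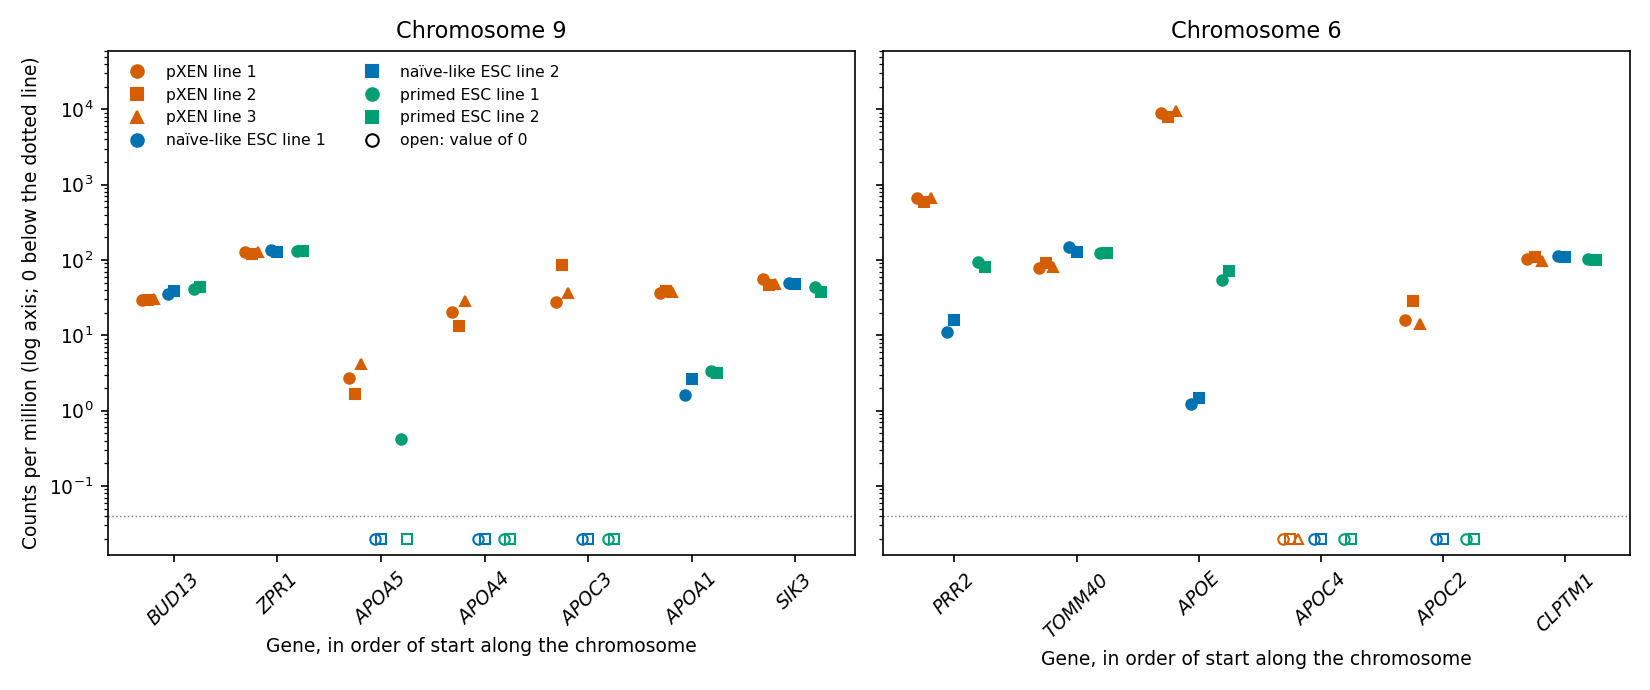
CPM of each gene of the chromosome 9 and chromosome 6 clusters, in order of start, for the 7 libraries, on a log axis with values of 0 as open symbols. *APOA5*, *APOA4*, *APOC3*, *APOA1*, *APOE* and *APOC2* are apart between pXEN and ESC lines, while *BUD13*, *ZPR1*, *SIK3*, *TOMM40* and *CLPTM1* lie close together; the interval of *PRR2* spans the others on chromosome 6.

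Away from these clusters, *TOMM40L*, 2093 bases from *APOA2*, was also higher in pXEN cells (log2 fold changes 0.95 and 1.02, adjusted p = 0.00134 and 0.00115). *FCER1G* on the other side of *APOA2* had 0 to 5 counts. Next to *MTTP*, *TRMT10A* was not called (-0.27, adjusted p = 0.54 and -0.38, adjusted p = 0.4). The median log2 difference between line 2 and the other pXEN lines lay between 0.01 and 0.12 over the genes of each chromosome that holds one of the 9 genes.

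Among other apolipoproteins, 6 were tested, of which 5 were higher in pXEN cells than in nESCs (28.3% and 26.2% of all genes), and 4 were higher and 1 lower than in pESCs (23.9% and 24.4% of all genes). This and the following lists hold genes that, like *APOC2*, passed the filter only through the pXEN lines, so their counts are a description. *CLU*, or apolipoprotein J, a secreted chaperone, was at 204, 289 and 201 FPKM in the pXEN lines and at 19.9 to 38.1 FPKM in the ESC lines (log2 fold changes 2.88 and 3.44, adjusted p = 4.85e-05 and 3.64e-05). *APOO* and *APOOL*, named as apolipoproteins but part of the mitochondrial cristae machinery, had small differences, at log2 fold changes of 0.49 and 0.65 in the comparison with nESCs (adjusted p = 0.0387 and 0.0234). Under upper-quartile scaling 3 genes of the list were called in that comparison. The gene that was lower than in pESCs, and the 1 gene called between the ESC types, was *APOD*, a lipocalin, at 0.0564 to 0.132 FPKM in the pXEN and 3.96 and 4.14 FPKM in the pESC lines; it was named after its values were seen. The list medians of the log2 fold change were 1.84 and 2.23, beside 0.00 and -0.01 over all genes tested.

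The genes of secretory export that APOB particles pass through were mostly higher in pXEN cells than in nESCs. Of 22 tested, 17 were higher and 2 lower than in nESCs (28.3% and 26.2% of all genes), and 12 higher and 4 lower than in pESCs (23.9% and 24.4% of all genes). The list medians were 0.88 and 0.43. *PDIA3*, a disulphide isomerase, was at 848, 925 and 779 FPKM in the pXEN lines, 377 and 353 FPKM in the naïve-like and 942 and 1053 FPKM in the pESC lines, and was called against nESCs (1.22, adjusted p = 7.92e-05) but not against pESCs (-0.22, adjusted p = 0.141). *HSPA5*, the main chaperone of the endoplasmic reticulum, was higher than in nESCs (1.59, adjusted p = 1.28e-05) and lower than in pESCs (-0.73, adjusted p = 0.000657). For both chaperones pESCs had the highest mean level, whereas for the detected apolipoproteins described first pXEN cells had it. The coat proteins *SEC13* (0.77 and 0.82), *SEC31A* (0.56 and 0.43) and *SEC24C* (0.62 and 0.44) were called higher against both ESC types.

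Within the export list some genes outside the rule for naming stood apart and were picked after their values were seen. *CIDEB*, a lipid droplet protein that adds lipid to very low density lipoprotein, was at 23.1, 18.5 and 20.7 FPKM in the pXEN lines, 0 in the naïve-like and 0.274 and 0.128 FPKM in the pESC lines. It was at least 92.9-fold higher than in nESCs. The genes lower than in nESCs were *PREB*, the exchange factor for SAR1 (-0.75, adjusted p = 0.0179), and *SAR1B*, and these with *HSPA5* and the cochaperone *DNAJC3* (-0.98, adjusted p = 0.000991) were those lower than in pESCs. *SAR1B*, the GTPase linked to chylomicron export, was lower in pXEN cells than in both ESC types (-0.67, adjusted p = 0.00514 and -0.45, adjusted p = 0.033). Its paralog *SAR1A* was higher than in both (1.07, adjusted p = 0.000893 and 0.65, adjusted p = 0.0109), and *SEC24D*, a cargo adaptor, rose by 2.84 and 1.76 on the log2 scale (adjusted p = 1.41e-05 and 0.000154).

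Most genes of the list of receptors for these ligands were also higher in pXEN cells. Of 14 tested, 10 were higher and 1 lower than in nESCs (28.3% and 26.2% of all genes), and 11 higher and 1 lower than in pESCs (23.9% and 24.4% of all genes), or 2 lower without pXEN line 2, with list medians of 2.91 and 1.69. *LRP1*, a receptor for APOE-bearing remnants, was at 121, 86.0 and 107 FPKM in the pXEN lines and 8.66 to 29.8 FPKM in the ESC lines (3.49 and 1.82, adjusted p = 3.08e-06 and 6.37e-05). It was thus highest in the cells with the most *APOE* RNA. *LRP2*, or megalin (3.33 and 2.42), *SCARB1*, the high density lipoprotein receptor (1.83 and 2.51), and *DAB2*, an endocytic adaptor (5.94 and 2.31), were called higher against both, and *LRPAP1*, the chaperone of these receptors, was not called (0.11, adjusted p = 0.578 and -0.34, adjusted p = 0.108).

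*LRP8*, a receptor for APOE and reelin, was the gene lower in pXEN cells in both comparisons (-0.87 and -0.74, adjusted p = 0.000861 and 0.00243). *CUBN*, or cubilin, the partner of *AMN* in uptake of high density lipoprotein, lay at or near 0 in all libraries, although *AMN* was at 7.02, 12.4 and 6.77 FPKM in the pXEN lines and 0 in the ESC lines. *LRP8*, *CUBN* and *AMN* were named after their values were seen. *CUBN* and *AMN* are also in the list of visceral endoderm and yolk sac proteins, and *DAB2* is among the extra-embryonic endoderm markers.

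Of the 8 lipases, transfer proteins and cholesterol exporters tested, 5 were higher in pXEN cells than in nESCs and none lower (28.3% and 26.2% of all genes), and 4 were higher and 2 lower than in pESCs (23.9% and 24.4% of all genes). *PLTP*, the phospholipid transfer protein, was at 182, 205 and 182 FPKM in the pXEN lines, 45.9 and 43.3 FPKM in the naïve-like and 103 and 93.8 FPKM in the pESC lines (2.08 and 0.96, adjusted p = 7.35e-06 and 0.000385). *ABCA1*, which exports cholesterol to APOA1, was at 71.3, 55.9 and 81.3 FPKM in the pXEN lines and 7.27 to 12.4 FPKM in the ESC lines (2.81 and 2.67, adjusted p = 5.91e-05 and 0.000109). Its pXEN lines did not overlap the ESC lines. *ANGPTL4*, an inhibitor of lipoprotein lipase, was highest in pESCs, at 11.8 and 15.2 FPKM, against 1.85, 3.13 and 2.03 FPKM in pXEN cells (log2 fold change -2.51, SE 0.34, adjusted p = 0.000585). The other gene lower than in pESCs was the cholesterol exporter *ABCG1*, and *LCAT*, which esterifies cholesterol (1.84 and 2.13, adjusted p = 0.00488 and 0.00307), and the paraoxonase *PON1* were higher against both ESC types, all 3 named after their values were seen.

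Genes of neutral lipid synthesis and storage supply the core of the particle. Of 18 tested, 12 were higher and 1 lower in pXEN cells than in nESCs (28.3% and 26.2% of all genes), and 12 higher and 3 lower than in pESCs (23.9% and 24.4% of all genes), with medians of 1.21 and 1.59. *DGAT1*, which makes triglyceride, was at 28.5, 24.8 and 27.2 FPKM in the pXEN and 10.6 to 13.5 FPKM in the ESC lines (1.12 and 1.16, adjusted p = 0.000493 and 0.000511). *GPAM*, which starts glycerolipid synthesis, was higher by 0.88 and 1.60 on the log2 scale (adjusted p = 0.000209 and 1.92e-05), and *PNPLA3*, a lipid droplet hydrolase, by 4.89 and 3.13 (adjusted p = 4.61e-06 and 2.98e-05). The gene that was lower than in nESCs was *PLIN2*, a coat protein of lipid droplets, at 8.29, 13.2 and 6.39 FPKM in the pXEN lines, 32.0 and 39.1 FPKM in the naïve-like and 14.1 and 14.2 FPKM in the pESC lines (-1.94, adjusted p = 0.00057); it was named after its values were seen. Lower than in pESCs were *SOAT1*, *AGPAT2* and *PLIN5*, also named after their values were seen. *FABP1*, the liver fatty acid binding protein, was at 9.50, 29.3 and 11.1 FPKM in the pXEN lines, and at 0 in all ESC lines.

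Transcription factors known to act on apolipoprotein genes in liver were present in pXEN cells. In this list, *GATA4*, *GATA6*, *HNF4A* and *FOXA2* are also among the markers of extra-embryonic endoderm above. Of 26 tested, 18 were higher and 3 lower than in nESCs (28.3% and 26.2% of all genes), or 6 lower without pXEN line 2, and 16 higher and 3 lower than in pESCs (23.9% and 24.4% of all genes), with medians of 1.83 and 1.75. *HNF4A*, a nuclear receptor of liver and visceral endoderm, was at 277, 211 and 268 FPKM in the pXEN lines and at most 0.217 FPKM in any ESC line. *FOXA2*, a forkhead factor of endoderm, was at 97.8, 104 and 99.6 FPKM against at most 0.111 FPKM. *FOXA1*, a partner of FOXA2 in liver, was also present in ESCs, at 253, 212 and 235 FPKM in the pXEN, 12.8 and 14.1 FPKM in the naïve-like and 49.5 and 47.2 FPKM in the pESC lines, which gave differences of 4.11 and 2.28 (adjusted p = 5.41e-07 and 6.49e-06), and of 1.83 between primed and nESCs (adjusted p = 5.05e-05). The sterol regulator *SREBF2* differed less (0.61 and 0.31, adjusted p = 0.00106 and 0.0295). *HNF4A* was lower in line 2 than in lines 1 and 3, and *ONECUT1*, a liver factor named after its values were seen, was at 12.2 FPKM there against 1.83 and 1.97 FPKM. The factors lower in pXEN cells were *NR2F1*, an orphan nuclear receptor (-3.15 and -2.63, adjusted p = 6.08e-05 and 0.000212), and *RORA* in both comparisons, *ESRRA* against nESCs and *NR2F2* against pESCs, all named after their values were seen.

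Between primed and nESCs, 7 export genes were higher and none lower of 22 tested, where 19.0% of all genes were higher and 13.3% lower. There were 4 genes of the receptor list higher of 14, among them *LRP1*, *LSR* and *DAB2*, 3 lipases and transporters higher of 8, 8 lipid genes higher and 5 lower of 18, and 8 transcription factors higher and 3 lower of 26. Without pXEN line 2, which is in neither group but shares the estimate of spread, 10 export genes were higher and 1 lower, 6 receptor genes higher and 1 lower, and 12 transcription factors higher and 5 lower. *HSPA5* (2.31, adjusted p = 1.21e-05) and *LSR*, a receptor for triglyceride-rich lipoproteins (3.48, adjusted p = 0.000127), were among those called. Medians of the log2 fold change were between 0.16 and 0.67 over the lists, beside 0.01 over all genes tested. All the lists were compiled with earlier results of these data known.

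**Figure D5:**
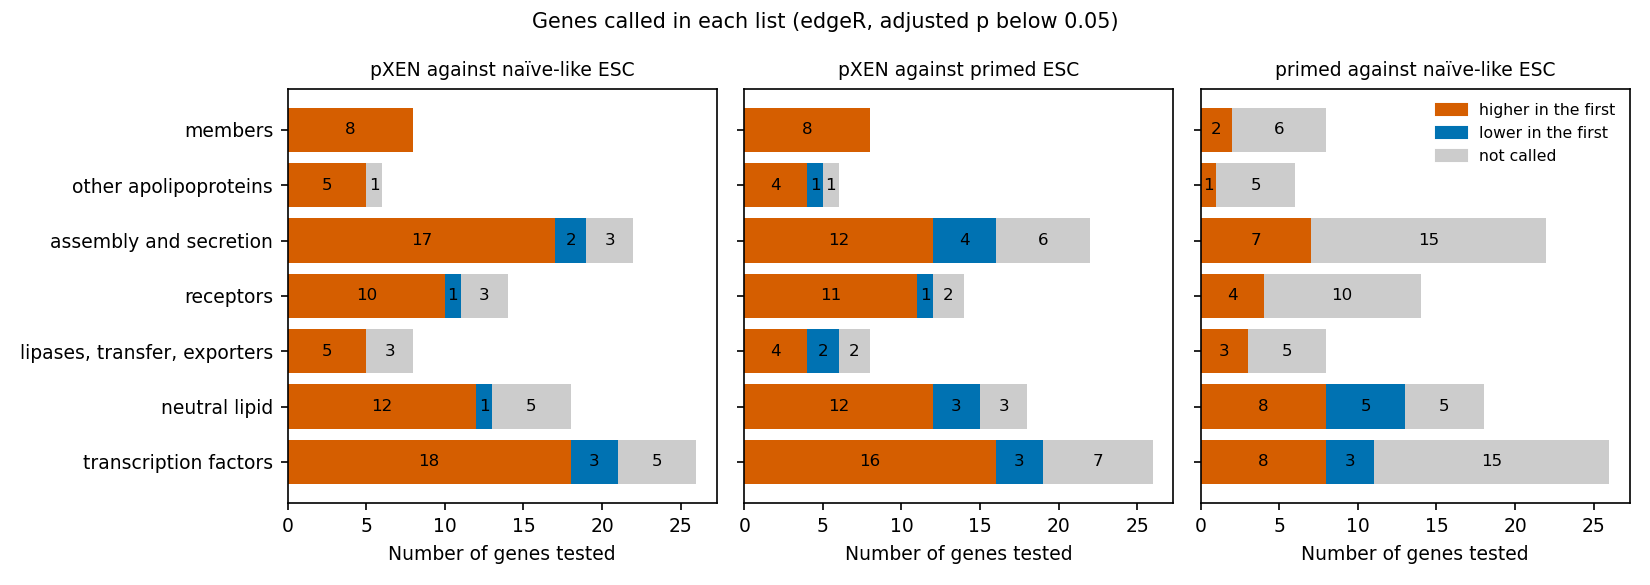
Number of genes tested in each list that were called higher or lower in the first cell type named, or not called, in the 3 comparisons. In the pXEN comparisons the genes called were mostly higher, with the export list at 12 higher and 4 lower against pESCs.

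The genes with the most similar profile over the 7 libraries were taken from 11102 genes by Pearson's r of log2(FPKM + 1), as a description. They were *AMN*, *APOA2* and *SERPINA1* for *APOB*, and *AMN*, *APOB* and *SERPINA1* for *APOA2*, with r, rounded, of 0.9996 to 0.9999. For *APOC3* they were the sodium-proton exchanger *SLC9A3*, angiotensinogen (*AGT*) and *STX11*, and for *APOE* they were *CALU*, *PIR* and *CD61*. For *APOA1* they were *DGCR2*, *OSBPL3* and *FLRT2*, for *APOA4* *ITGAV*, *TMEM27* and *TXNRD1*, and for *APOM* *CRYZ*, *EFNA1* and *ELF3*. With 3 groups so far apart, r was above 0.95 for 807 to 998 genes for each of these members, and the libraries share their depth and scaling. *MTTP*, which was present in all lines, had 200 such genes, led by *ZNF135* at 0.992, *PSD3* and *TAB3*.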

How the data were processed

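The authors counted reads on genes with featureCounts 1.5.0-p3 after HISAT2 2.0.5 alignment, per the submitters' notes, which also name edgeR 3.22.5 and the build Sscrofa10.2, and deposited raw counts. They also deposited FPKM values, which equal counts over listed length and a total set for each library (0.913 to 1.08 times its counts). Libraries were rRNA-depleted and directional; the strand setting of the counting is not given in the sources used here.

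Counts of all 7 libraries entered 1 edgeR 4.0.16 model (R 4.3.3) with TMM, filterByExpr, group as its term and the quasi-likelihood test. SEs are the log2 fold change over the root of F, and adjusted p below 0.05 was called among 17447 genes. Lines are the replicates; nothing states that they came from separate animals. Members and lists were chosen with earlier results of these data known. Named genes are the members, chromosome neighbours, the 3 most similar profiles, and up to 8 genes of each list with a group mean of at least 10 FPKM, by pXEN mean. Some list genes are included in the counts but not reported here by name. Of the 29510 genes, 13114 have no name, and 11804 identifiers matched a reference table of another build, used for names alone. Scripts were tested on simulated data. Alternatives were upper-quartile scaling, DESeq2 1.42.0 (size factors and Wald test), limma 3.58.1 on log2 FPKM with pseudocounts 1 and 0.1 and a minimum mean FPKM of 0.1, other filters, 2 groups alone, each library left out and the replicate block.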

Additional observations from a re-analysis of the deposited data

How the results depend on the processing

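Against nESCs, the 4 members with counts in every library kept their call and direction in all 16 settings, and against pESCs in all but those without a pESC line, where *MTTP* was not called (values over the libraries left out 1.41 to 1.75). Between the ESC types, *APOE* was called in every setting. *MTTP* was not called under upper-quartile scaling (1.44, adjusted p = 0.0516), DESeq2's Wald test (1.54, adjusted p = 0.052) or limma on log2(FPKM + 0.1) (1.76, adjusted p = 0.0529), which left 1 member called, and leaving out each library gave values from 0.89 to 2.67 and counts from 1 to 3. There *APOA1* ranged from 0.34 to 1.03 and *APOM* from -0.53 to 0.98 over the libraries left out, and *APOM* was -0.060 under upper-quartile scaling, which moved the median of all genes by -0.16, -0.08 and -0.07. The cause was not tested. Upper-quartile scaling called 3 other apolipoproteins against nESCs and 2 between the ESC types. Without pXEN line 2, chosen after seeing the data, counts between the ESC types were 4 other apolipoproteins, 11 export genes, 7 receptors and 17 transcription factors, while transcription factors lower than in nESCs went from 3 to 6 and receptors lower than in pESCs from 1 to 2. List totals were compared only under upper-quartile scaling and without pXEN line 2, and there the other totals stayed within 1.5 times. Line numbers share only a number: deviations of same-numbered lines correlated at -0.00892 to 0.0442, and with the replicate block *MTTP* was 1.66 between the ESC types (adjusted p = 0.0188) and the calls of the 4 members with counts in every library were the same. Low counts limit *APOH* and the 4 members near 0 in ESCs, whose folds are bounds or ratios with wide counting intervals.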
